A study of Mus musculus with 2 samples.

Results

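Late erythroid cells were taken as the cell barcodes of 2 droplet single-cell RNA libraries of mouse cochlea in which haemoglobin genes gave 80% or more of all UMIs (unique molecular identifiers, each standing for 1 captured transcript). Barcodes had first to show at least 300 detected genes and at most 20% of UMIs from genes starting mt-. The members were thus chosen by their haemoglobin share and gene number, both measured in these libraries. The rule found 319 members among 1975 kept barcodes, of 2330 barcodes in all. Both libraries belonged to 1 group of wild-type C57BL/6 mice aged 20 days. Cochleae of 5 to 8 mice had been pooled and digested with trypsin, per the labels' protocols, and no treated or mutant animals were part of the data. Members were compared with 3 other sets of barcodes from the same libraries. Low-gene red cell barcodes (335) met the haemoglobin rule but had under 300 genes. Early erythroid barcodes (121) passed the filters, lay under 80% haemoglobin and had UMIs of at least 3 of 8 erythroid genes, among them the transcription factors Klf1 and Gata1, the erythropoietin receptor gene Epor and the carbonic anhydrase gene Car1. The other 1535 kept barcodes made up the rest of the series, and 20 barcodes fell to the mitochondrial filter. Nothing in the labels says whether the 2 libraries came from separate mice. Tests over libraries therefore compare the differences between sets with their spread between these libraries only. For the median gene that spread was pooled over genes.

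Red cells of mammals arise from dividing erythroblasts that fill with haemoglobin, stop dividing and expel the nucleus, and the reticulocyte that remains clears its mitochondria and ribosomes. Haemoglobin is built from α chains (Hba-a1, Hba-a2) and β chains (Hbb-bs, Hbb-bt) around haem, whose synthesis in red cells starts with Alas2. Bpgm, the bisphosphoglycerate mutase, makes the small molecule that lowers the oxygen affinity of haemoglobin. In the cochlea red cells pass through the capillaries of the stria vascularis and the spiral ligament, and the surrounding temporal bone can hold marrow.

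The sequences upstream of the genes that define these cells are shown first, because the α and β globin transcripts chose the members and Alas2 stood among their most abundant other transcripts. On GRCm38 (GENCODE M21) Hba-a1 lies at chr11:32283511-32284465 and Hba-a2 at chr11:32296489-32297298 (plus strand), Hbb-bt at chr7:103812524-103813996 and Hbb-bs at chr7:103826534-103828096 (minus strand), Alas2 at chrX:150547375-150570638 and Bpgm at chr6:34476207-34505613 (plus strand). Each sequence is the 250 bases before the RefSeq gene start on GRCm38.p6, read on the strand of the gene. The windows lie at chr11:32296242-32296491 (plus strand) for Hba-a2, chr7:103827929-103828178 (minus strand) for Hbb-bs, chr7:103813924-103814173 (minus strand) for Hbb-bt and chrX:150547167-150547416 (plus strand) for Alas2. Capitals mark every match, on either strand, to GATAA (bound by GATA factors), CACCC (bound by Krüppel-like factors), CCAAT and TATAA.
Hba-a2: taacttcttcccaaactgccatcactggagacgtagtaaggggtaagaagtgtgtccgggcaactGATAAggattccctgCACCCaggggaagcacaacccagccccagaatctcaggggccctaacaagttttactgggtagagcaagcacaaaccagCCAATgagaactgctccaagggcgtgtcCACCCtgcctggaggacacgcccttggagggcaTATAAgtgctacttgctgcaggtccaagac
Hbb-bs: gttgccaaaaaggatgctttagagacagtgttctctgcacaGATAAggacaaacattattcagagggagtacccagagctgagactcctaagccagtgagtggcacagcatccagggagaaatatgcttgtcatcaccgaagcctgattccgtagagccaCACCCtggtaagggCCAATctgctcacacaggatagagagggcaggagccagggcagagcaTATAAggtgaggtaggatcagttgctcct
Hbb-bt: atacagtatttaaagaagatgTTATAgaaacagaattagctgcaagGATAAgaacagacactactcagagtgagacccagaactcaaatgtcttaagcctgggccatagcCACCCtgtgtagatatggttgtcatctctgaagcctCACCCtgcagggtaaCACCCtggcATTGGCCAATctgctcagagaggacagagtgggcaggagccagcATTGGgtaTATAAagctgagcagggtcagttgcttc
Alas2: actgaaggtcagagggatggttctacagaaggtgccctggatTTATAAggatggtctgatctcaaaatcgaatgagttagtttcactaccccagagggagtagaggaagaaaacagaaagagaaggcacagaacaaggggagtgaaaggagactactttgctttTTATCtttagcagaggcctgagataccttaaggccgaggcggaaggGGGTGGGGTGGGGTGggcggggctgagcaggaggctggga
Every globin window printed held all 4 motifs, with TATAA at -30 to -26 from the start in Hba-a2, -29 to -25 in Hbb-bs and -28 to -24 in Hbb-bt. The letters CCAAT were not in the Alas2 window, which held the other 3 motifs. Among the windows of all 32851 promoters in the table, GATAA stood in 22.6%, CACCC in 52.0%, CCAAT in 33.9%, TATAA in 22.8% and all 4 together in 0.968%. No match overlapped a match to another motif. Such matches describe the letters and are not binding sites. The full 300-base promoter sequences of Hba-a1 and Hba-a2, whose first 250 bases are the windows, shared an unbroken run of 297 bases. Hba-a1 is therefore not printed.

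The paired globin genes limit what the counts can tell apart. The coding sequences of Hba-a1 and Hba-a2 (GENCODE M21) differed at 1 of 429 bases and encoded the same 142 residues, and those of Hbb-bs and Hbb-bt differed at 1 of 444 bases and encoded the same 147 residues. After the stop codon the transcripts were 82.2% and 70.1% identical within the α and β pairs. No source used here tells how reads inside the shared stretches were assigned, so values split between the copies of a pair are uncertain and the sums over α and over β are firmer.

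Library 1 held 290 members, 21.8% of its 1331 kept barcodes (95% exact binomial interval 19.6 to 24.1%), and library 2 held 29, 4.50% of 644 (3.04 to 6.40%). These intervals cover counting error only. The intervals of the 2 libraries do not overlap although both belong to 1 group, so no share is given for the tissue. Members held 53.5% and 39.2% of all haemoglobin UMIs in libraries 1 and 2, and the low-gene barcodes held 31.0% and 50.7%. A member had a median of 10518 UMIs in library 1 and 12729 in library 2, of which 1056 and 953 came from outside the haemoglobin genes. Members showed 567 genes (range 300 to 997) and 398 genes (313 to 722). No barcode sequence of a member occurred in both libraries. Of the libraries' 20212520 and 7094752 UMIs, 25.4% and 12.6% came from haemoglobin genes.

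Haemoglobin share and gene number ran along 1 curve. Members had a median haemoglobin share of 90.5% in library 1 (range 80.1 to 94.4%) and 92.6% in library 2 (85.1 to 94.8%), values fixed by the rule and given as a description. The barcode just inside the threshold had 80.1% in library 1 and 85.1% in library 2, and the nearest outside had 79.5% and 79.0%. Between 70 and 80% there were 31 and 4 barcodes, between 80 and 90% 123 and 3, and between 90 and 95% 167 and 26. At the other edge of the rule, 35 and 5 members had 300 to 350 genes, while 52 and 12 low-gene barcodes had 250 to 300 genes with a median haemoglobin share of 94% and 95.4%. In the plot of haemoglobin share against detected genes, neither threshold falls in a gap of library 1.

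**Figure D1:**
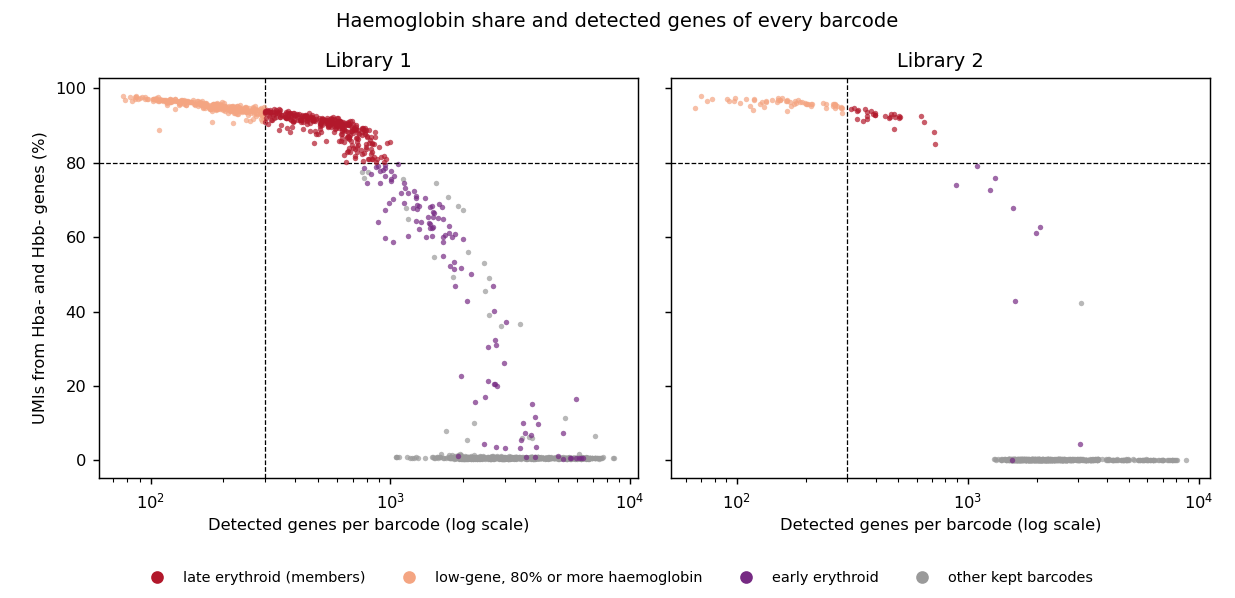
Share of UMIs from Hba- and Hbb- genes (y axis, %) against detected genes (x axis, log scale) for every barcode of each library, coloured by set, with dashed lines at 80% and 300 genes. Members sit between 80.1 and 94.8% haemoglobin and form a continuous arc between the low-gene barcodes and the early erythroid barcodes in library 1.

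The members carried the markers of their label. Alas2 and Bpgm were detected in all 290 members of library 1 and all 29 of library 2. Alas2 was also seen in 29.1% and 5.95% of the other kept barcodes, and Bpgm in 45.3% and 24.1%, at their medians of 10427 and 5934 UMIs per barcode, so a single UMI of either gene does not mark a red cell. Alas2 gave a median of 20.0 UMIs per member (range 5 to 50) in library 1 and 27 (12 to 49) in library 2, and Bpgm gave 14 (2 to 43) and 15 (9 to 36). Levels below are in CPM, the count of a gene scaled to 1000000 UMIs outside the Hba- and Hbb- genes, so that the haemoglobin share itself does not move them. A UMI counts a captured transcript once whatever its length. Alas2 stood at 18515 and 26823 CPM in the members of libraries 1 and 2, against 49.7 and 9.55 CPM in the other kept barcodes. Bpgm stood at 13376 and 16726 CPM in members, against 62.7 and 34 CPM in other barcodes. In both libraries the members lay far above the other barcodes for both genes. Of the 8 early erythroid selector genes, at least 3 were present in 42 of 290 members of library 1 and 0 of 29 of library 2.

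Adult globins made up nearly all haemoglobin UMIs of the members. Hbb-bs gave 45.1% of them in library 1 and 36.1% in library 2, Hba-a1 24.4% and 27.5%, Hba-a2 19.5% and 25.6%, and Hbb-bt 11% and 10.8%. The embryonic chains were near absent, with 8 and 1 UMIs of Hbb-bh1, 3 and 2 of Hbb-bh2, 1 and 0 of Hbb-y, and 0 and 0 of Hba-x. Hbq1a and Hbq1b, the θ globin genes, which the rule did not use, stood at 352 and 578 CPM and 476 and 509.9 CPM in members, against 1.25 and 0 CPM and 1.11 and 0.167 CPM in other barcodes.

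The balance of β to α transcripts, given with no test, differed more between libraries than between erythroid sets. Members had 1.28 and 0.884 β UMIs for each α UMI in libraries 1 and 2, low-gene barcodes 1.22 and 0.851, and early erythroid barcodes 1.19 and 0.842. Member by member the median ratio was 1.27 in library 1 and 0.881 in library 2. In the other kept barcodes with under 2% haemoglobin (903 and 604 barcodes), the few haemoglobin UMIs had a ratio of 2.82 and 2.26, above all 3 erythroid sets in both libraries. The exact binomial interval of that ratio was 2.77 to 2.86 in library 1 and 2.17 to 2.35 in library 2. The 20 and 1 other barcodes with at least 10% haemoglobin had 1.27 and 1.03, closer to the members. Within the β pair, the ratio of Hbb-bs to Hbb-bt was 4.09 and 3.35 in members, 4.81 and 4.76 in low-gene barcodes and 3.0 and 3.0 in early barcodes.

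**Figure D2:**
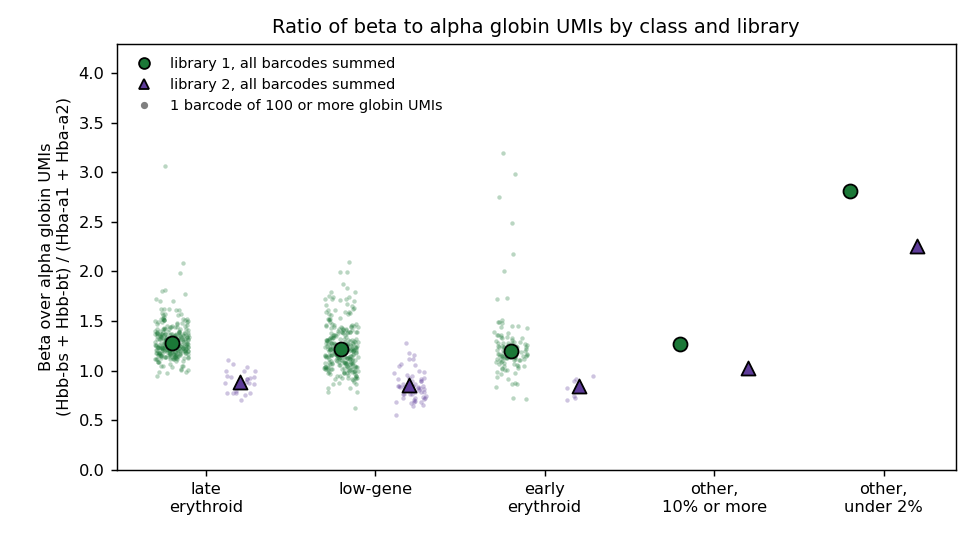
Ratio of β globin (Hbb-bs and Hbb-bt) to α globin (Hba-a1 and Hba-a2) UMIs on the y axis by set of barcodes and library. Large symbols are sums over all barcodes of a set and small points single barcodes with at least 100 globin UMIs. Members had ratios of 1.28 and 0.884, and other barcodes with under 2% haemoglobin had 2.82 and 2.26.

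Outside haemoglobin, a short list of transcripts filled a large part of the members' RNA. The 15 most abundant genes, leaving out mitochondrial ones, held 18.4% of the remaining UMIs in library 1 and 23.5% in library 2. Ubb, a ubiquitin precursor, stood at 21371 and 30019 CPM in members, against 2631 and 3181 CPM in early erythroid barcodes and 2956 and 2575 CPM in other barcodes. Gpx1, the glutathione peroxidase that removes hydrogen peroxide, stood at 22057 and 22234 CPM in members, 4489 and 11851.5 CPM in early and 363 and 193 CPM in other barcodes. The iron store genes Ftl1 (17437 and 17372 CPM) and Fth1 (10421 and 12171 CPM) were also abundant in other barcodes, at 4459.9 and 3644 CPM and 3701 and 3775 CPM. Mkrn1, a ubiquitin ligase, had 13743.5 and 20262 CPM in members and 104 and 56.4 CPM in other barcodes.

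Further abundant genes were Sec61g, a subunit of the protein channel of the endoplasmic reticulum, Oaz1, an inhibitor of polyamine synthesis, Car2, the cytosolic carbonic anhydrase, Ube2l6, a ubiquitin-like conjugating enzyme, Cd24a, a surface protein, H3f3a, a replication-independent histone, and Pabpc1, the poly(A)-binding protein. Their members' levels ran between 6156 CPM (Ube2l6, library 1) and 14856 CPM (Sec61g, library 2). The spread between members was wide for Car2, with a median of 5 UMIs and a range of 0 to 80 in library 1 and 4 (0 to 70) in library 2. By contrast, Ubb, Alas2, Bpgm, Ftl1 and Oaz1 were found in every one of the 319 members. Malat1, a nuclear RNA, was at 7804 and 5167 CPM in members, against 7735 and 14181 CPM in early erythroid and 40113 and 44559 CPM in other barcodes. The 13 protein-coding genes of the mitochondrial genome, whose share the filter used, summed to 61813 and 120143 CPM in members. Low-gene barcodes had 103737 and 145395 CPM, early barcodes 26189 and 34197 CPM and other barcodes 40721.5 and 39385 CPM. Members held 20001 and 3534 of these UMIs over 290 and 29 barcodes, and the early set 28546 and 1688 over 111 and 10. Per barcode, members thus had fewer than early barcodes in both libraries.

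**Figure D3:**
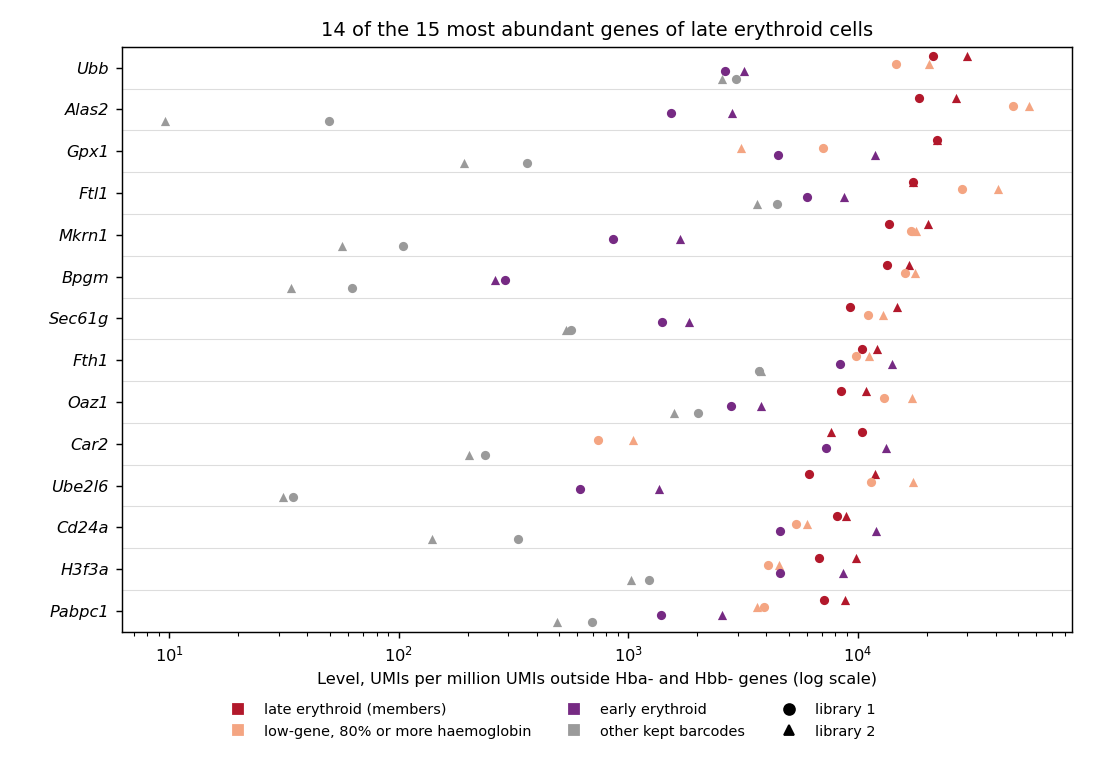
Level of 14 of the 15 most abundant genes of the members outside the Hba-, Hbb- and mt- genes, in CPM outside Hba- and Hbb- genes (x axis, log scale), by set of barcodes (colour) and library (symbol). Alas2 in members (18515 and 26823 CPM) lies below the low-gene barcodes (47645 and 55614 CPM) and above the other sets.

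The comparison of late with early erythroid barcodes asked which transcripts differ on the 2 sides of the haemoglobin threshold along this curve. Counts were summed per library and set and tested with edgeR's quasi-likelihood test with the library as a block, over 1131 genes that passed the filter on low counts, with Benjamini-Hochberg adjustment and a threshold of 0.05. The Hba-, Hbb-, mt- and 8 selector genes were left out because they chose the sets. Members were higher for 324 genes (28.6%) and lower for 414 (36.6%), so 65.3% of the genes tested were called and a single call is common background here. The median log2 fold change over all tested genes was -0.37. With DESeq2 size factors in place of TMM this median moved up by 0.36 and the calls split into 366 higher and 280 lower. Values in parentheses below are log2 fold changes of late over early barcodes, ± SE where given.

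The early set was uneven. In library 1, 84 of its 111 barcodes had 20% or more haemoglobin, and in library 2, 8 of 10. Without the remaining 27 and 2 barcodes, the counts in the fit were 361986 of 1055606 in library 1 and 31679 of 47226 in library 2, so few barcodes with little haemoglobin held most of the early counts of library 1. Whether these few barcodes were early erythroid cells or other cells with a few UMIs of the selector genes was not tested. Leaving them out, an alternative chosen after the data were seen, gave 291 genes higher and 332 lower of 1005 tested. Counts under it are given below for several lists.

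Depth also differed between the sets. Members had a median of 1056 and 953 UMIs outside haemoglobin, against 4184 and 4471 in early barcodes. All 414 lower genes also had fewer UMIs per barcode in members in both libraries. Of the 324 higher genes, 28 also had more UMIs per barcode in members in both libraries, while 189 had fewer in both. In CPM, 167 of the 324 lay above the other kept barcodes in both libraries and 136 lay below them in both. The part of free RNA in the higher calls was not tested, and values per barcode are given for some of the genes that follow.

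The genes of haem synthesis changed in both directions. Of 15 listed, 11 were tested, 4 were higher, 5 were lower, and their median log2 fold change was -0.84. Against early barcodes with 20% or more haemoglobin, 2 were higher and 8 lower of 13 tested. Alas2 stood at 18515 and 26823 CPM in members and 1540.4 and 2836 CPM in early barcodes (log2 fold change 3.70 ± 0.35 SE, edgeR with Benjamini-Hochberg adjusted p = 1.9e-23), and it also had more UMIs per barcode, 20.7 and 27.2 in members against 15.1 and 14. Fech, which inserts iron into the ring as the last step, had 4691 and 7955 CPM in members and 1022 and 2553 CPM in early barcodes (2.20 ± 0.35). Per barcode, however, Fech was lower in members, at 5.23 and 8.07 UMIs against 10.04 and 12.6. Fam210b, which lost its call against early barcodes with 20% or more haemoglobin, and the mitochondrial iron importer Slc25a37 were the other higher genes.

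Several other haem synthesis genes were lower in members, while Urod and Ppox did not pass the test. Cpox, the coproporphyrinogen oxidase, had 95.8 and 34 CPM in members and 1130.3 and 1823 CPM in early barcodes (-3.79 ± 0.46, edgeR with Benjamini-Hochberg adjusted p = 6.6e-15). Alad, the second enzyme, had 127 and 0 CPM in members and 1099 and 1479 CPM in early barcodes. Tmem14c, a mitochondrial porphyrin transport protein, had 142 and 102 CPM in members and 1516 and 1722 CPM in early barcodes. For these 3 genes the members of both libraries lay below the early barcodes of both. Abcb10, a mitochondrial transporter, was also lower. Of the iron genes, 5 of 14 were tested, with 1 higher and 2 lower, but 1 higher and 1 lower against early barcodes with 20% or more haemoglobin. Ftl1 was higher in CPM (1.55) and lower per barcode, with 19.5 and 17.6 UMIs in members against 58.9 and 43.2. By CPM, Tfrc, the transferrin receptor that takes up iron, was lower at 117 and 68 CPM in members against 310.1 and 385 CPM in early barcodes (-1.46), as was Pcbp1, an iron chaperone (-1.54).

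Genes for the clearance of organelles and loss of the nucleus were higher in members. Of 20 listed, 9 were tested and 8 were higher, with a median log2 fold change of 2.62 against -0.37 over all genes tested. None of the 9 was lower in edgeR, 0 of 9 was lower at an unadjusted p under 0.05, and DESeq2 called 8 higher and 0 lower. With no filter on low counts 9 of all 20 were higher and 0 lower, beside 529 higher of all 14238 genes, and the list median was 1.47. Xpo7 passed the filter in part through its level in members, so counts over the tested genes are a description. Against early barcodes with 20% or more haemoglobin 8 of 9 were higher and 0 lower, with a median of 1.53 beside -0.16 over all genes. Bnip3l, the receptor that marks mitochondria for removal in reticulocytes, had 6484 and 7921 CPM in members, against 532 and 729 CPM in early and 296 and 251 CPM in other barcodes (3.82 ± 0.38, edgeR with Benjamini-Hochberg adjusted p = 1.3e-21). It was also higher per barcode, with 7.23 and 8.03 UMIs in members against 5.23 and 3.6. Gabarapl2, a protein of the autophagosome membrane, had 4045 and 5711 CPM in members and 343 and 871 CPM in early barcodes (3.45), and was the only other gene of this list with more UMIs per barcode in both libraries. Its relative Map1lc3b had 3427 and 3944 CPM in members and 405.5 and 993 CPM in early barcodes (2.83), with 3.82 and 4 UMIs per member against 3.98 and 4.9. Riok3, needed for late erythroid maturation in mouse (2.80), Trim10 (2.22), Sqstm1 and Tax1bp1 were also higher in CPM. Xpo7, a nuclear exporter needed for the same step in mouse, was called higher over all members (2.62), but that call rests on the members with under 90% haemoglobin, which are 3 barcodes in library 2. Members with 90 to 95% had 35.8 and 41.2 CPM of Xpo7, below the 104 and 203 CPM of early barcodes.

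The ubiquitin system was led by erythroid conjugating enzymes. Of 22 genes listed, 15 were tested, 7 were higher and 2 (Gid8 and Ubac1) lower, with a median of 0.83. Against early barcodes with 20% or more haemoglobin 7 were higher and 3 lower of 16, with a median of 0.33 beside -0.16 over all genes. Ube2h, which works with the CTLH ligase, had 528 and 679.9 CPM in members and 33.9 and 101.3 CPM in early barcodes (3.86). Ube2o, which drives removal of ribosomes in mouse reticulocytes, had 655 and 748 CPM in members and 69.7 and 60.8 CPM in early barcodes (3.56 ± 0.45, edgeR with Benjamini-Hochberg adjusted p = 1.3e-13). Ube2l6 had 6156 and 11865 CPM in members and 615 and 1357 CPM in early barcodes (3.51). These 3 genes were higher in members on both scales and in both libraries. Ubb was higher in CPM (3.40), but per barcode it was lower in library 1 and higher in library 2, with 23.8 and 30.4 UMIs in members against 25.8 and 15.7.

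**Figure D4:**
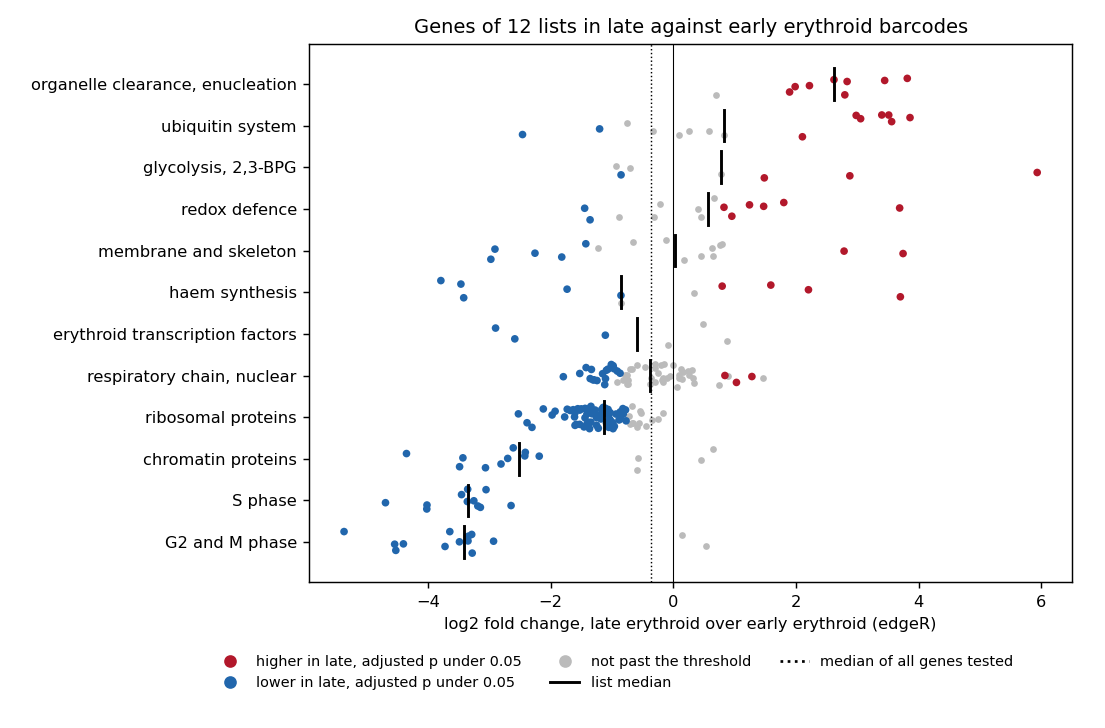
Log2 fold change of late over early erythroid barcodes (x axis, edgeR) for each tested gene of 12 gene lists, with called genes in colour, list medians as bars and the median of all tested genes (-0.37) as a dotted line. The organelle clearance genes lie right of 0 with a median of 2.62, and the S phase genes left of it with a median of -3.35.

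Redox and sugar metabolism genes changed in part. Of 23 redox genes, 14 were tested, 6 were higher and 2 lower (median 0.56), while DESeq2 called 2 higher and 1 lower, and with no filter on low counts 2 were higher and 4 lower. Cat, the catalase, had 1208 and 2346 CPM in members and 117 and 203 CPM in early barcodes (3.69 ± 0.39, edgeR with Benjamini-Hochberg adjusted p = 1e-18) and was the 1 gene of the list that also had more UMIs per barcode in both libraries. Gpx1 was higher in CPM (1.80) but had 24.6 and 22.6 UMIs per member against 44.1 and 58.5 per early barcode. The thioredoxin gene Txn1 was lower (-1.44). Prdx2, an abundant red cell peroxidase, did not pass the test at 7309 and 6357 CPM in members and 4941 and 7476 CPM in early barcodes. Among 17 glycolysis genes, 7 were tested and Bpgm had the largest increase of all 1131 genes, with 13376 and 16726 CPM in members and 292 and 263 CPM in early barcodes (5.93 ± 0.41, edgeR with Benjamini-Hochberg adjusted p = 7.2e-43). Per barcode, Bpgm had 14.9 and 17 UMIs in members and 2.86 and 1.3 in early barcodes. The lactate dehydrogenase gene Ldhb and the pyruvate kinase gene Pkm were called higher (2.88 and 1.48) but had fewer UMIs per barcode than in early barcodes. Pkm stood at 136 and 102 CPM in members, below the 344 and 275 CPM of other barcodes. Gapdh was lower (-0.85), but turned to 0.41 against early barcodes with 20% or more haemoglobin, where 5 of the 7 sugar metabolism genes were higher and 1 lower.

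Membrane and skeleton genes changed in part. Of 26 listed, 16 were tested, 2 were higher and 5 lower, and the median was 0.02; with DESeq2 size factors 6 were higher and 4 lower, and against early barcodes with 20% or more haemoglobin 2 were higher and 11 lower of 19. Epb41, the protein 4.1 that ties spectrin to the membrane, had 1196 and 1632 CPM in members and 108 and 142 CPM in early barcodes (3.75 ± 0.41, edgeR with Benjamini-Hochberg adjusted p = 5.2e-18), and was higher per barcode as well. Mpp1, a scaffold of the same complex, was higher in CPM by 2.79, with 1.66 and 1.34 UMIs per member against 2.12 and 1.5. Aqp1, the water channel, had 161 and 0 CPM in members and 923 and 1357 CPM in early barcodes (-2.97). Icam4 (-2.91) and Rhd (-1.82), both surface proteins, were lower too, with Gypc and Dmtn.

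Cell division transcripts were low in members. Only 11 of 18 listed S phase genes and 14 of 22 listed G2 and M phase genes passed the filter on low counts, in part through their level in early barcodes, so counts over the tested genes are a description. Of these, 11 and 12 were lower, with medians of -3.35 and -3.42. With no filter 18 of 18 and 20 of 22 were lower, and against early barcodes with 20% or more haemoglobin 6 of 6 and 16 of 17 tested. None of either list was higher in edgeR, 0 was higher at an unadjusted p under 0.05, and DESeq2 called 11 and 12 lower and 0 higher. With DESeq2 size factors, or with members of 90% or more haemoglobin alone, 1 of the 14 G2 and M phase genes was higher. Mcm6, part of the replicative helicase, had 4 and 0 UMIs over all members, against 343 and 14 over the early barcodes. Top2a, the topoisomerase of mitosis, had 18.5 and 34 CPM in members and 496 and 648 CPM in early barcodes (-4.52 ± 0.60, edgeR with Benjamini-Hochberg adjusted p = 2e-12). Ccnb1 (3 and 0 UMIs in members, 407 and 28 in early barcodes), Cenpf and the histone gene Hist1h2ap, 2 and 0 UMIs in members and 1155 and 76 in early barcodes, were among the 8 genes with the largest decreases. The others of these 8 were Mns1, Smc2 and Phf10. Ube2c, a conjugating enzyme of the anaphase complex, did not follow the list and did not pass the test, at 2142 and 2142 CPM in members and 1628 and 1985 CPM in early barcodes, far above the 69.1 and 3.35 CPM of other barcodes. Nusap1, a spindle protein, did not pass the test either, with 686 and 306 CPM in members and 445 and 790.1 CPM in early barcodes.

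Chromatin protein genes were low in members, and the tested erythroid transcription factors were lower in part. Of 15 chromatin protein genes, 14 were tested and 10 were lower (median -2.51), led by the DNA-binding protein Hmgb2 with 263 and 34 CPM in members and 3353 and 5875 CPM in early barcodes (-4.35). The edgeR test called 0 of the 14 higher, 1 was higher at an unadjusted p under 0.05, and DESeq2 called 0 higher. With DESeq2 size factors, with members of 90% or more haemoglobin, or with members having under 3 selector genes, 1 of the 14 was higher. H3f3a, by contrast, did not pass the test, with 6765 and 9859 CPM in members and 4596 and 8671 CPM in early barcodes. Of 18 erythroid transcription factor genes, 6 were tested, and Tal1 (-2.90), E2f4 (-2.58) and Klf3 (-1.11) were lower. None was higher in edgeR, 0 was higher at an unadjusted p under 0.05, and DESeq2 called 2 lower and 0 higher. With DESeq2 size factors, or with 5 selector genes for the early set, 1 was higher and 2 lower. Against early barcodes with 20% or more haemoglobin 6 of 8 were lower. Tal1, E2f4 and some chromatin protein genes passed the filter on low counts through their level in early barcodes. The counts over the tested genes of both lists are therefore a description. With no filter 8 of 18 factors and 10 of 15 chromatin protein genes were lower and 0 higher, beside 1064 lower of all 14238 genes. The cell cycle inhibitors Cdkn2c and Cdkn2d were lower as well (-2.70 and -2.93). Bcl2l1, the survival gene, was higher with 1477 and 2482 CPM in members and 78 and 162 CPM in early barcodes (4.40 ± 0.41, edgeR with Benjamini-Hochberg adjusted p = 6.9e-24), and had 1.65 and 2.52 UMIs per member against 0.766 and 0.8. Btg1 and Socs3 were called higher too, but stood below the other barcodes in both libraries and had fewer UMIs per barcode than in early barcodes.

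Ribosomal protein transcripts were lower in members than in the whole early set. Of 84 listed, 80 were tested, 67 were lower and 0 higher in edgeR, with a median of -1.13. At an unadjusted p under 0.05, 69 were lower and 0 higher, and DESeq2 called 57 lower and 0 higher. The genes summed to 97651 and 83223 CPM in members and 264590.0 and 181560.0 CPM in early barcodes, and members lay below in both libraries. Barcodes with 70 to 80% haemoglobin, just outside the membership, summed to 91664 and 63281.5 CPM, no higher than the members in either library. Rpl15 had 306 and 136 CPM in members and 1672 and 1236 CPM in early barcodes (-2.52), and Rps2 had 927 and 1019.9 CPM in members and 6425 and 3282 CPM in early barcodes (-2.12). The count of lower genes was 41 without the library as a block, 42 for members of 90% or more haemoglobin and 44 with 5 selector genes for the early set. Against early barcodes with 20% or more haemoglobin 26 of 80 were lower, beside 332 of all 1005 genes tested there, and the median was -0.36 beside -0.16 over all genes. That share is near the background, so no fall particular to these genes is read against the haemoglobin-rich early barcodes. Nuclear genes of the respiratory chain gave no stable count: 60 of 79 were tested, 3 were higher and 18 lower, but 5 were higher and 1 lower with DESeq2 size factors, 1 and 3 without the block, 1 each with DESeq2, and 3 each of 52 against early barcodes with 20% or more haemoglobin. Atp5l was higher in CPM (1.28) but had 1.47 and 2.21 UMIs per member against 8.77 and 3.4 per early barcode. Ndufa10 was lower (-1.79).

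Other genes with the largest increases were Hbq1a (5.26 ± 0.58), Fam220a, Ccndbp1, Fam213a, Mkrn1 and Fam46c, a terminal nucleotidyltransferase. Fam220a had 5365 and 7785 CPM in members and 249.5 and 425 CPM in early barcodes. Hbq1a had 114 and 17 UMIs in members, 13 and 0 in early barcodes, and was also higher per barcode in both libraries. Hbq1b, the other θ globin gene, was also called higher but had 0.531 and 0.517 UMIs per member against 1.59 and 1.3 per early barcode. Fam46c had 2027 and 2176 CPM in members and 103 and 284 CPM in early barcodes.

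Among the members themselves, levels changed with the haemoglobin share. The bands are a cut of the selecting measure, so these values are a description with no test, and the genes shown were chosen after some values had been seen. They follow the order 70 to 80% (31 and 4 barcodes, not members), 80 to 90% (123 and 3) and 90 to 95% (167 and 26). Library 2 had only 3 members in the 80 to 90% band. Alas2 stood at 8290.2, 15295 and 22753 CPM in library 1 and 7012.5, 14211 and 29492 CPM in library 2. Bpgm stood at 3109, 11846 and 15388 CPM in library 1 and 845, 11875 and 17753 CPM in library 2. In CPM both genes were thus highest in the band richest in haemoglobin, as were Mkrn1 and Bnip3l in both libraries. The UMIs outside haemoglobin, to which CPM is scaled, fell over the bands, with medians of 2253, 1499 and 783 in library 1. In library 2 they were 2839, 1919 and 909.5. Per barcode, Bpgm, Mkrn1 and Bnip3l were highest in the 80 to 90% band in both libraries, and Alas2 in library 1 only. Bpgm had 2178 UMIs over the 123 barcodes of that band in library 1 and 2150 over the 167 of the next.

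Several transcripts dropped steeply inside the membership. Xpo7 had 1181, 1365 and 35.8 CPM in library 1 and 845, 2531 and 41.2 CPM in library 2 over the 3 bands. Tmcc2 had 4053, 4536 and 165 CPM and 2366, 6619 and 82.4 CPM. Tfrc had 551, 179 and 35.8 CPM and 760.4, 195 and 41.2 CPM. These rest on 42, 33 and 5 UMIs in library 1 and 9, 1 and 1 UMIs in library 2. The order of the 2 member bands of library 2 is therefore not read for Tfrc. Xpo7 and Tmcc2, and Tfrc in library 1, were lower in the 90 to 95% band than in both other bands of the same library. Car2 and Slc4a1 were lower there as well. Car2 had 20188, 15338 and 4094 CPM and 22305, 20051 and 4984 CPM. Slc4a1, the anion exchanger, had 3489, 2535 and 966 CPM and 2366, 2141 and 824 CPM. The band decides the sign for Tmcc2: members with 90% or more haemoglobin alone put it below the early barcodes, at a log2 fold change of -1.03, where all members together gave 2.32. Xpo7 did not pass the filter on low counts in that fit, and its CPM in this band lay below that of the early barcodes in both libraries. Not every gene followed these 2 courses. Eif5, a translation initiation factor, was highest in the middle band, with 1535, 5058 and 1446 CPM in library 1 and 253, 8760.0 and 3213 CPM in library 2. Ube2c had 2978, 2116 and 2176 CPM and 2535, 389 and 2513 CPM, while Top2a had 275, 21.8 and 14.3 CPM and 0, 195 and 0 CPM.

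**Figure D5:**
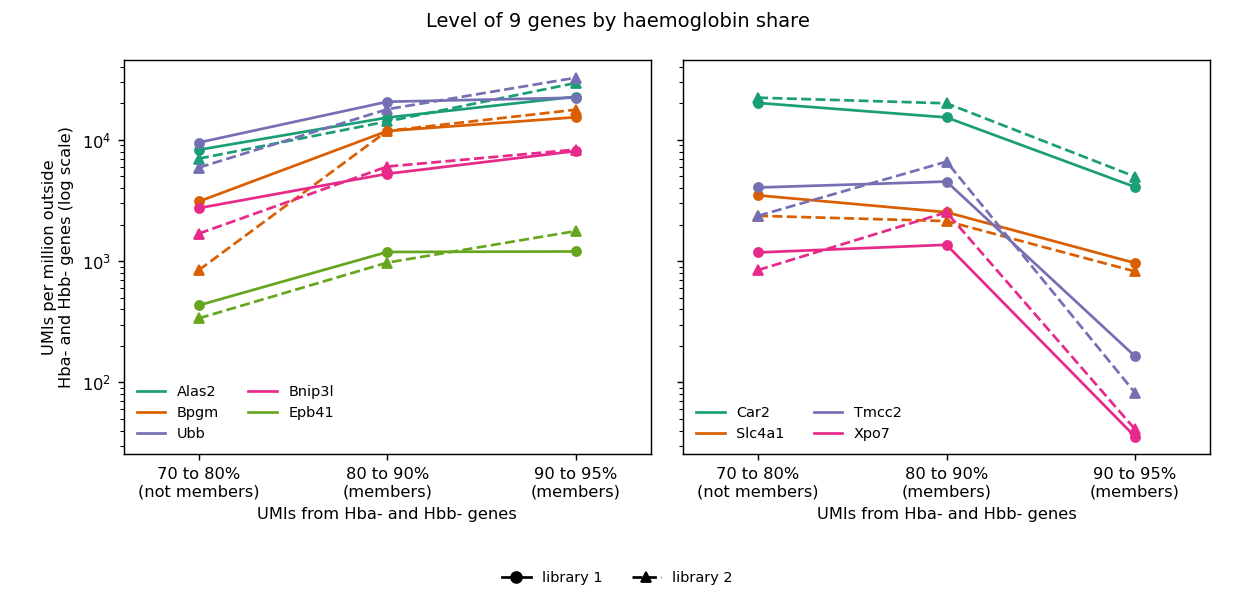
Level of 9 genes (y axis, CPM outside Hba- and Hbb- genes, log scale) in barcodes with 70 to 80% (not members), 80 to 90% and 90 to 95% haemoglobin UMIs, with library 1 as solid and library 2 as dashed lines. In CPM, Alas2, Bpgm and Bnip3l are highest in the 90 to 95% band, and Xpo7, Tmcc2, Car2 and Slc4a1 are lowest there.

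Members and low-gene barcodes differ by rule only in the number of detected genes, so a gene present in few copies has to be more frequent in members. In the same edgeR fit 83 genes (7.34%) were higher in members and 16 (1.41%) lower, 8.75% of 1131. Without the library as a block the counts were 47 and 1, and with DESeq2 they were 31 and 9. Values in parentheses from here on are log2 fold changes of members over low-gene barcodes. Members had a median of 1056 and 953 UMIs outside haemoglobin, against 290.0 and 288 in low-gene barcodes.

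Car2, Trim10 and several enzymes stood higher in members. Car2 had 10483 and 7615 CPM in members and 736 and 1051 CPM in low-gene barcodes (3.32 ± 0.38, edgeR with Benjamini-Hochberg adjusted p = 1.2e-14). Blvrb, a reductase of haem breakdown products, had 3319 and 3196 CPM in members and 772 and 368 CPM in low-gene barcodes (2.28). Xpo7, which dropped in the 90 to 95% band, had 791 and 476 CPM in members and 36.8 and 52.6 CPM in low-gene barcodes (3.94), and Tmcc2 had 2649 and 1224 CPM in members and 98.1 and 105 CPM in low-gene barcodes (4.23). Both differences rest on the members with under 90% haemoglobin. In library 2 the 3 such barcodes held 13 of 14 Xpo7 UMIs and 34 of 36 Tmcc2 UMIs of the members. The 90 to 95% band, given above, lay close to the low-gene barcodes for both genes. Gpx1 had 22057 and 22234 CPM in members and 7087 and 3101 CPM in low-gene barcodes (1.98), and Trim10 had 1684 and 2482 CPM in members and 110.3 and 52.6 CPM in low-gene barcodes (4.12). Cmas, which activates sialic acid, and St3gal5, which transfers it, were higher by 4.38 and 3.72. Eif2ak1, the haem-regulated kinase that restrains globin translation, had 71 and 2 UMIs in members, against 1 and 0 in low-gene barcodes. Of the membrane list, 8 of 16 tested genes were higher, among them Epb42 and Rhd, but 3 of 16 with members of 90% or more haemoglobin. Of the redox list, 6 of 14 were higher. Of the 30 tested genes 0 was lower in edgeR, but only 1.41% of all 1131 genes were lower, so this count says little. At an unadjusted p under 0.05, 0 was lower, beside 41 of all 1131 genes. DESeq2 called 5 and 4 higher and 0 lower.

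In CPM, a few transcripts ran the other way. Alas2 had 18515 and 26823 CPM in members, against 47645 and 55614 CPM in low-gene barcodes (-1.29 ± 0.32, edgeR with Benjamini-Hochberg adjusted p = 0.0014). Per barcode its order was the reverse, with 20.7 and 27.2 UMIs in members and 14.1 and 17.6 in low-gene barcodes. Ftl1 had 17437 and 17372 CPM in members and 28432 and 40948 CPM in low-gene barcodes (-1.04). Per barcode Ftl1 was higher in members too, with 19.5 and 17.6 UMIs against 8.43 and 13.0. Bpgm did not pass the test, with 13376 and 16726 CPM in members and 16098 and 17767 CPM in low-gene barcodes.

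Transcripts of other cell types were present in the members. UMIs of at least 3 markers of 1 other type were seen in 228 of 290 members of library 1 and 7 of 29 of library 2. The markers came from 12 lists of cochlear, connective, neural support and blood cell genes. The share was 78.6 and 24.1% in members, 81.1 and 30% in early and 20 and 1.67% in low-gene barcodes. In other kept barcodes it was 96.5 and 80%. Cochlear fibrocyte markers had the highest summed level of the 12 lists, all 6 detected in both libraries, with 6073 and 3366 CPM in members, 1115 and 669 CPM in early and 6388 and 6554 CPM in other barcodes. Per barcode these were 6.78 and 3.41 UMIs in members, 10.9 and 3.3 in early and 93.1 and 64.7 in other barcodes. Granulocyte and monocyte markers, with 8 of 8 detected in library 1 and 5 of 8 in library 2 (Camp, Elane and Mpo at 0), had 4834 and 374 CPM in members and 7406 and 1679 CPM in other barcodes, and differed between libraries in both sets. Otos, otospiralin of the spiral ligament, had 2568 and 1359.8 CPM in members, 311 and 142 CPM in early and 201.2 and 235 CPM in other barcodes. Per barcode the sets were closer, with 2.87 and 1.38 UMIs in members, 3.05 and 0.7 in early and 2.93 and 2.32 in other barcodes of libraries 1 and 2. Schwann cell markers had 859 and 170 CPM in members and 436 and 225 CPM in other barcodes. Per barcode these were 0.959 and 0.172 UMIs in members against 6.35 and 2.22. Markers of T and NK cells were at 15.5 and 0 CPM in members and 17.5 and 4.02 CPM in other barcodes. Those of platelets and megakaryocytes were at 61.8 and 34.0 CPM in members, with Ppbp and Treml1 at 0 in both libraries, and 45.4 and 51.3 CPM in other barcodes. Endothelial markers reached 71.1 and 0 CPM in members, with Cldn5 and Kdr at 0 in library 1 and all 6 at 0 in library 2. In other barcodes they stood at 118 and 149 CPM. Without the barcodes that had 3 or more markers of 1 other type, 237 genes were higher and 264 lower in late against early barcodes, of 780 tested, and the 7 tested organelle clearance genes were all higher. Beyond this the part of these transcripts in single results was not tested.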

How the data were processed

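The deposited files held raw UMI counts per gene and barcode for 2 libraries. Per the submitters' processing notes the authors used Cell Ranger 2.1.0 and the build mm10. No source used here tells how barcodes were selected or doublets treated before deposit. Counts were read with Python 3.11.15, pandas 2.3.3 and scanpy 1.11.5. Barcodes with under 300 genes or over 20% mt- UMIs were set aside, and sets were drawn by haemoglobin share (80%) and 8 selector genes. The members, the gene lists and the tests were chosen with earlier results of these data known. Levels (CPM) are summed counts per library scaled to 1000000 UMIs outside the Hba- and Hbb- genes. Sums of the late, early and low-gene sets entered 1 fit in edgeR 4.0.16 (R 4.3.3; TMM, filterByExpr with a minimum count of 10, robust quasi-likelihood test, Benjamini-Hochberg adjustment, threshold 0.05), with the library as a block because the sets of a library come from 1 suspension. With 2 libraries the fit had 2 residual degrees of freedom. Its p-values compare the differences between sets with how far these varied between the libraries, which may be technical. The fit gave the median gene an infinite prior weight, so that its spread was pooled over genes and was not its own. DESeq2 1.42.0 was an alternative. The code was tested on simulated data.

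Named genes were the markers and globins, the 15 most abundant transcripts, the 8 largest called changes in each direction that both libraries share with 10 or more counts, and from each list the 4 largest called changes and the 2 highest levels. Selector genes, other cell types' markers, genes that complete a count of 5 or fewer and some genes of the haemoglobin bands were named after their values were seen. A few genes are not reported here. Scrublet at an expected rate of 6% marked 2 and 4 barcodes, 0 of them late or early erythroid. Promoter windows are RefSeq's on GRCm38.p6. Intervals are exact binomial at 95%.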

Additional observations from a re-analysis of the deposited data

How the results depend on the processing

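For late against early barcodes, no filter on low counts gave 529 genes higher and 1064 lower, leaving out barcodes with 3 or more markers of another type gave 264 lower (780 genes tested), and DESeq2 gave 245 lower. After the data were seen, 167 of the higher genes were counted above the other kept barcodes and 28 higher per barcode as well. Without the library as a replicate block 271 were higher and 311 lower. Of the 738 calls, 452 held under every edgeR alternative that tested the gene and 22 changed sign under at least 1. A gene that did not pass the filter of an alternative was not counted as lost there. For late against low-gene barcodes, DESeq2 size factors gave 25 lower, no filter gave 0 lower in edgeR (37 at an unadjusted p under 0.05; DESeq2 with the filter called 9), no replicate block gave 47 higher and 1 lower, members of 90% or more haemoglobin gave 16 and 5, leaving out other-type barcodes gave 55 higher, and DESeq2 gave 31 and 9. Of 99 calls, 24 held under every edgeR alternative that tested the gene and 3 changed sign. Late over early, Tmcc2 turned to -1.03 at 90% haemoglobin, and Gapdh, Atp5g1 and Atp5g2 to 0.41, 0.10 and 0.88 against early barcodes with 20% or more haemoglobin. The cause was not tested. The member share of library 1 was 28.2% and 14.7% with minimums of 200 and 500 genes and 24.1% and 12.5% with haemoglobin thresholds of 70% and 90%, and that of library 2 was 7.38% and 1.13% with the 2 gene minimums. With 1 library left out, Alas2 in members lay between 18515 and 26823 CPM and Bpgm between 13376 and 16726 CPM, values with no test. The 29 members of library 2 limit every value given for that library.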

Other observations

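In CPM, some genes outside the lists were lower in members than in low-gene barcodes. Sh3glb1, a membrane-bending protein linked to autophagy, had 1255 and 1768 CPM in members, against 3053 and 3995 CPM in low-gene barcodes (log2 fold change -1.32, edgeR with Benjamini-Hochberg adjustment). The predicted or non-coding transcripts Gm42418, AY036118 and Gm26917 were also lower in members in CPM. Per barcode each of these genes, Sh3glb1 included, had more UMIs in members in both libraries. Sh3glb1 had 1.4 and 1.79 UMIs per member against 0.905 and 1.27 per low-gene barcode. Gm42418 had 389 and 986 CPM in members, against 1042 and 1735 CPM in low-gene barcodes and 113 and 222 CPM in the other kept barcodes. Fam220a did not pass this test, with 5365 and 7785 CPM in members and 9355 and 12248 CPM in low-gene barcodes.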
